A study of Rattus norvegicus with 6 samples.

Results

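Collagens are trimers of chains whose repeated glycine lets 3 chains wind into a helix, and each chain is the product of a gene of its own. The collagen chains described here are all genes with a symbol of the form Col, a number, a, a number that had a probe set assigned to that gene alone, 25 of the 14506 genes tested. One probe set stood for each gene, the one with the highest mean over the 6 arrays. By collagen type they fell into 10 fibrillar chains (types I, II, III, V, XI and XXVII), 3 basement membrane chains (type IV), 5 FACIT chains (fibril-associated collagens with interrupted triple helices, types IX, XII, XIV and XVI) and 7 others (types VI, VII, VIII, X, XIII, XVII and XXIII). The chains of 19 further RefSeq collagen genes, among them Col4a2, Col6a1, Col6a2, Col6a3, Col15a1 and Col18a1, were not analysed here.

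The RNA came from neurospheres, floating clusters that carotid body cells of adult rats formed over 10 days in neural crest medium; the carotid body is the organ that senses blood oxygen. Of the 6 Affymetrix arrays, 3 were labelled differentiated, from spheres kept without mitogens at 3% oxygen, and 3 were labelled undifferentiated, from spheres kept in normoxia with FGF, IGF-1, EGF and ET-1. Mitogens and oxygen thus changed together, and the part of each in a difference cannot be told apart. The sources used here do not give the strain or sex, or say whether replicate arrays stem from different animals or cultures. The series asked which pathways distinguish spheres rich in neuronal cells from spheres rich in undifferentiated cells.

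Th, tyrosine hydroxylase, which defines the catecholamine-making glomus cells, read 10.73, 11.32 and 10.65 on the arrays labelled differentiated and 13.76, 13.59 and 13.91 on those labelled undifferentiated, which goes against the labels. The groups are therefore named by their labels, and each direction below is that of the arrays as labelled. The neuron marker Tubb3, the glial marker Gfap and the progenitor marker Nes were also chosen as checks of the labels. They differed by -0.002, 0.19 and 0.65 on the log2 scale and did not pass (limma adjusted p = 0.995, 0.373 and 0.0542). Array medians lay between 5.05 and 5.13, and arrays of a group correlated at 0.986 to 0.993 (Pearson), arrays of different groups at 0.959 to 0.97.

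Fibrillar collagens are laid down by fibroblasts and other mesenchymal cells as banded fibrils, which give a tissue its tensile strength. Type IV forms the sheet-like network of basement membranes around vessels, glia and epithelia, FACIT collagens sit on the surface of fibrils, and the other types form short networks, anchoring fibrils or membrane-bound chains. Chains are hydroxylated and folded in the endoplasmic reticulum, trimmed outside the cell and cross-linked by lysyl oxidases.

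Every collagen chain had a higher mean on the arrays labelled differentiated, as did 8361 of all 14506 genes. Of the 25 chains, 15 rose at an adjusted p under 0.05 (limma, Benjamini-Hochberg adjustment over all 14506 genes) and 0 fell, against 29.5% of all genes called, 14.7% higher and 14.9% lower. At an unadjusted p under 0.05 in limma 19 chains rose and 0 fell, against 2886 higher and 2631 lower of all 14506 genes. In the unmoderated test 11 chains rose and 0 fell after adjustment, against 2740 of all genes called in either direction. The median log2 difference of the chains was 0.63, against 0.06 over all genes tested. In 20 of the 25 chains the arrays labelled differentiated all lay above those labelled undifferentiated, which held for 22.5% of all genes; the opposite order held for 0 chains and for 19.8% of all genes. A rise of at least 1 on the log2 scale was called for 7 chains, all of them fibrillar, against 3.2% of all genes. In bulk RNA, more cells that make collagen and more collagen RNA per cell cannot be told apart.

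**Figure D1:**
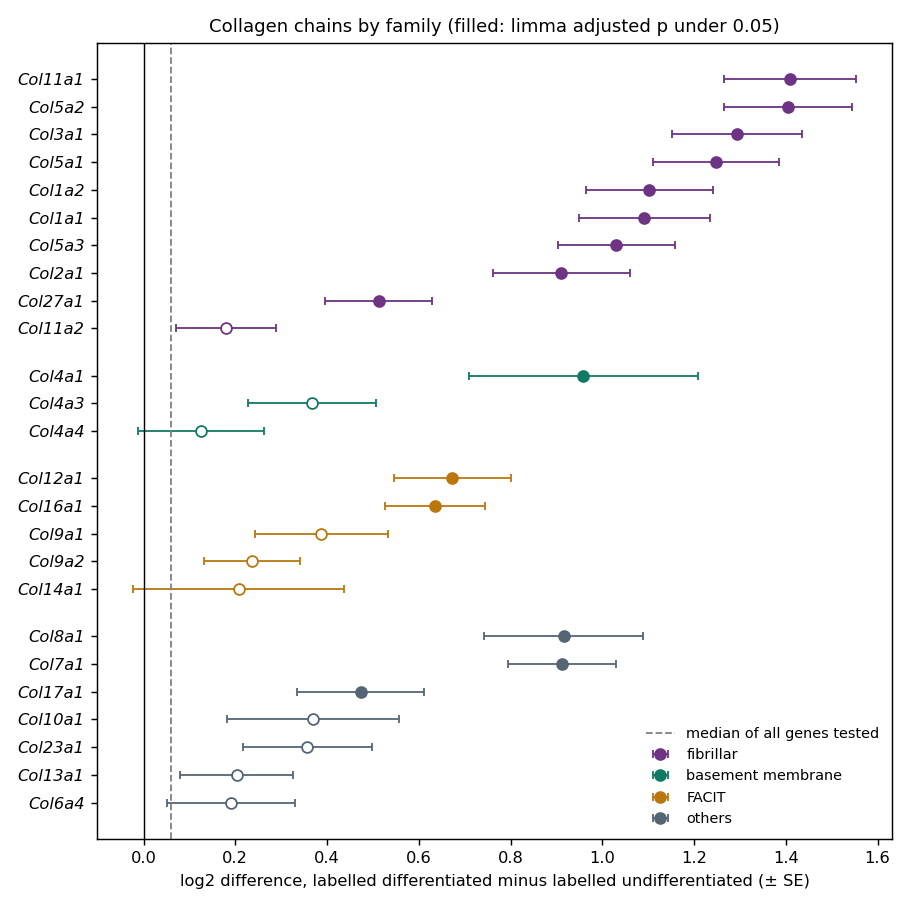
Log2 difference between the arrays labelled differentiated and those labelled undifferentiated for each of the 25 collagen chains, on the horizontal axis, with its standard error as the bar, grouped by family. Filled points passed a limma adjusted p of 0.05, and the dashed line is the median over all genes tested, at 0.06. The fibrillar chains reach furthest right, from Col11a2 at 0.18 to Col11a1 at 1.41, and no chain lies left of 0.

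The start regions of the chains that the results turn on are shown here, from RefSeq on the GRCr8 assembly, in letters read 5′ to 3′ along the gene. A start region was listed for 20 of the 25 chains, and not for Col1a1, Col2a1, Col3a1, Col12a1 or Col14a1. Capitals mark matches, on either strand, to CCAAT (reverse ATTGG, the CCAAT box), GGGCGG (reverse CCGCCC, the GC box) and TATAAA (reverse TTTATA, the TATA box). Col1a2 is shown from base 250 to base 151 before its annotated start (chr4:33518307-33518406, plus strand). Col5a2 (chr9:55090152-55090401, minus strand) and Col11a1 (chr2:204508886-204509135, plus strand) are the fibrillar chains of smallest p, and Col7a1 (chr8:118483114-118483363, plus strand) is the non-fibrillar chain of smallest p, each shown over the 250 bases before the start. For type IV the stretch shown is the whole gap between the divergent starts of Col4a1 and Col4a2 (chr16:84885521-84885596, plus strand, towards Col4a1).
Col1a2: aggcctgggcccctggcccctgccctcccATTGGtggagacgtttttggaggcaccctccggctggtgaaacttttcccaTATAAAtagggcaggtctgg
Col5a2: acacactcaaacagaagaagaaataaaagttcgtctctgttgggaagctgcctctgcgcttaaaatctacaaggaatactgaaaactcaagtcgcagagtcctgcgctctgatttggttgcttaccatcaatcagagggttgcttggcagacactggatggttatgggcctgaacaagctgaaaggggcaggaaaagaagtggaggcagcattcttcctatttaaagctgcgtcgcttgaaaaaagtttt
Col11a1: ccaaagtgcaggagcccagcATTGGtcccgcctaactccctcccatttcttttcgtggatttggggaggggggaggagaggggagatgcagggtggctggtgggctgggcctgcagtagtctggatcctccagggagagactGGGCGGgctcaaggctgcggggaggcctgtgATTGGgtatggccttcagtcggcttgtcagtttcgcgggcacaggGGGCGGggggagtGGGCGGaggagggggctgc
Col7a1: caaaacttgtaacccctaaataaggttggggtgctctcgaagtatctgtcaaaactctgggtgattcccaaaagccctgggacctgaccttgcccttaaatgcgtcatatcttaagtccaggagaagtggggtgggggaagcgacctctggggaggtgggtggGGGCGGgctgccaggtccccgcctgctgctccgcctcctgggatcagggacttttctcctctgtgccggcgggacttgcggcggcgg
Col4a1 and Col4a2: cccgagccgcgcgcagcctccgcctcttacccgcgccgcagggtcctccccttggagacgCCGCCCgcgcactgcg

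Over the 250 bases before the start, a CCAAT box was found in 7 of the 20 chains (35%), against 34.0% of the 33469 start regions of the RefSeq table. A GC box was found in 11 of the 20 (55.0%), against 30.5% of all start regions, and a TATA box in 4 of the 20, against 12.9% of all start regions. In Col1a2 the CCAAT box lay on the opposite strand 221 to 217 bases, and the TATA box 170 to 165 bases, before the annotated start. Col11a1 held 3 GC boxes and 2 CCAAT boxes on the opposite strand, Col7a1 held 1 GC box, and the 250 bases of Col5a2 held none of the 3 motifs. These matches are of letters only.

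Among the fibrillar chains 9 of 10 rose, with a median log2 difference of 1.10, and the remaining chain, Col11a2, did not pass. The 10 chains differed between the groups by 0.18 to 1.41 on the log2 scale, and in all 10 the groups did not overlap. The arrays labelled undifferentiated were uneven: the first of them gave the highest value of its group in 7 of the 10 chains. The 9 calls each passed under all 14 alternatives tried, leaving out that array included.

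**Figure D2:**
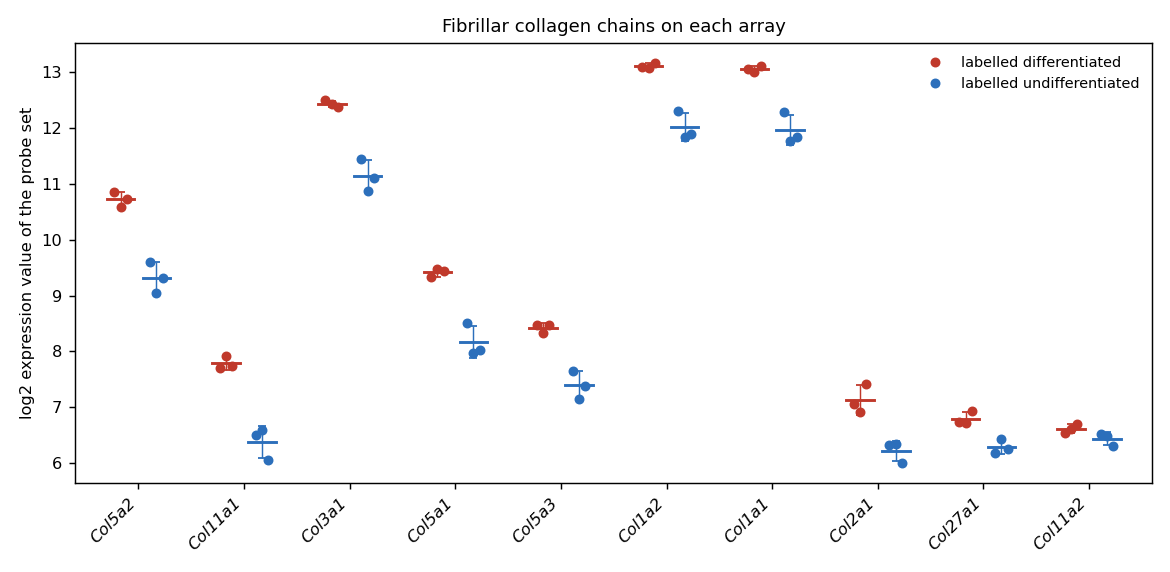
Log2 expression values of the probe sets of the 10 fibrillar chains on each of the 6 arrays, with the group mean as a line and the SD as a bar (n = 3 arrays a group). The arrays labelled differentiated all lie above those labelled undifferentiated, with the narrowest gap in Col11a2. Heights of different genes are not comparable, since each probe set has its own response.

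Type V collagen starts fibrils and limits their width, and its 3 chains rose. Col5a2 read 10.86, 10.59 and 10.74 on the arrays labelled differentiated and 9.61, 9.05 and 9.31 on those labelled undifferentiated. The difference was 1.40 ± 0.14 (SE), or 2.65-fold, and passed (limma adjusted p = 2.07e-05). Col5a1 read 9.33, 9.48 and 9.44 on the arrays labelled differentiated and 8.51, 7.97 and 8.03 on those labelled undifferentiated. The spread was wider in the undifferentiated group (SD 0.29, against 0.08 in the differentiated group), and the groups did not overlap. Col5a1 rose by 1.25 ± 0.14 (SE, adjusted p = 4.47e-05), and Col5a3, a chain found in fewer tissues, by 1.03 ± 0.13 (SE).

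Type III is the fibrillar collagen of stretchable tissues such as vessel walls, and it is a trimer of a single chain. Col3a1 read 12.50, 12.44 and 12.39 on the arrays labelled differentiated and 11.44, 10.88 and 11.11 on those labelled undifferentiated. The groups lay apart, and Col3a1 was higher by 1.29 ± 0.14 (SE), or 2.45-fold (limma adjusted p = 4.24e-05). Col3a1 and Col5a2 are direct neighbours among the protein-coding genes of rat chromosome 9, and their differences were 1.29 and 1.40.

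Type I, the main collagen of skin, tendon and bone, is built of 2 Col1a1 chains and 1 Col1a2 chain. Values on each array are given in each family for the 4 called chains of smallest p, and those of both type I chains are added although they were not among these 4. Col1a1 read 13.05, 13.01 and 13.12 on the arrays labelled differentiated and 12.28, 11.78 and 11.85 on those labelled undifferentiated. Col1a2 read 13.10, 13.09 and 13.17 on the arrays labelled differentiated and 12.31, 11.85 and 11.89 on those labelled undifferentiated. Both chains were evenly high in the differentiated group and highest on the first array within the undifferentiated group. Col1a1 rose by 1.09 ± 0.14 (SE) and Col1a2 by 1.10 ± 0.14 (SE), with limma adjusted p of 0.000154 and 0.000116. The change in their ratio between the groups was 0.011 on the log2 scale (exact permutation p = 0.5, two-sided).

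Types II and XI are the fibrillar collagens of cartilage, and type XI takes a chain from the Col2a1 gene. Col11a1 read 7.70, 7.93 and 7.74 on the arrays labelled differentiated and 6.50, 6.59 and 6.05 on those labelled undifferentiated. Its rise of 1.41 ± 0.14 (SE), or 2.66-fold, left no overlap of the groups (limma adjusted p = 2.54e-05). Col2a1 rose by 0.91 ± 0.15 (SE, adjusted p = 0.000721). Col11a2 read 6.54, 6.62 and 6.70 on the arrays labelled differentiated and 6.53, 6.48 and 6.31 on those labelled undifferentiated, and it was chosen for display after its values were seen. The groups of Col11a2 lay edge to edge, and its difference of 0.18 ± 0.11 (SE) did not pass (adjusted p = 0.268). Col27a1, a fibrillar chain of growing cartilage, rose by 0.51 ± 0.12 (SE, adjusted p = 0.0059).

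Chains of a single collagen type were compared within each array in 11 pairs, with an exact two-sided permutation test over the arrays, for which 0.1 is the smallest p that 3 arrays against 3 allow. None of the 11 can therefore pass, and the adjusted p was 0.275 or more for each. In 4 pairs the groups did not overlap, but 3 of these are formed from Col2a1, Col11a1 and Col11a2 and are not separate observations. For single genes 22.5% lay above and 19.8% below without overlap, and no such share was computed for pairs of genes. The ratio of Col11a1 to Col11a2 gave the widest gap: the log2 ratio of their probe set values was 1.16, 1.31 and 1.05 on the arrays labelled differentiated and -0.03, 0.11 and -0.26 on those labelled undifferentiated. That is a change of 1.23 in the ratio (exact p = 0.1). The ratio of Col2a1 to Col11a2 changed by 0.73, that of Col11a1 to Col2a1 by 0.50, and that of Col5a2 to Col5a3 by 0.37, each with the smallest p possible. In the type IV and type IX pairs the groups overlapped.

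**Figure D3:**
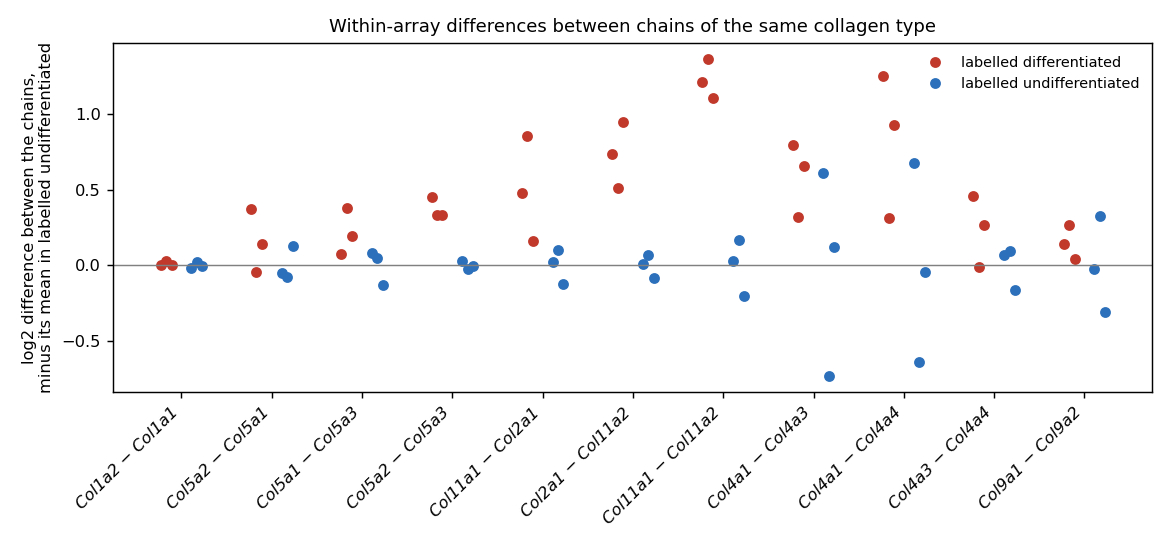
Log2 difference between the probe sets of 2 chains on the same array, shown relative to the mean of the arrays labelled undifferentiated, for the 11 pairs of chains that share a collagen type (Col2a1 is counted with type XI). Points are single arrays. Col1a2 and Col1a1 kept near 0 in both groups, whereas Col11a1 relative to Col11a2 lies higher on all 3 arrays labelled differentiated.

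Of the 3 basement membrane chains 1 rose. Col4a1, which with the Col4a2 chain makes the type IV network common to most basement membranes, read 9.17, 8.39 and 8.99 on the arrays labelled differentiated and 8.37, 7.33 and 7.98 on those labelled undifferentiated. Its arrays were spread more widely than those of the other called chains, with an SD of 0.41 in the differentiated group and 0.53 in the undifferentiated group. The lowest differentiated array lay just above the highest undifferentiated array. Col4a1 was higher by 0.96 ± 0.25 (SE), or 1.94-fold (limma adjusted p = 0.0131). That call did not hold in 2 of the fits that left out an array, at adjusted p = 0.0586 without differentiated replicate 1 and 0.0508 without the third array of that group, nor in the unmoderated test (adjusted p = 0.181). In both groups the first array read highest and the second lowest. With the replicate number as a block in limma the adjusted p was 2.465e-05, but the numbers were not shown to pair the arrays. Col4a3 and Col4a4, chains of the mature kidney, lung and inner ear networks, differed by 0.37 ± 0.14 and 0.13 ± 0.14 (SE) and did not pass (adjusted p = 0.0737 and 0.562). Col4a3 passed without differentiated replicate 2 (adjusted p = 0.0371). These 2 genes are neighbours with divergent starts 413 bases apart, as are Col4a1 and Col4a2 with starts 77 bases apart.

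FACIT chains rose in 2 of 5 cases. Col16a1, found on fibrils and near basement membranes, read 7.38, 7.32 and 7.56 on the arrays labelled differentiated and 6.91, 6.70 and 6.74 on those labelled undifferentiated. It rose by 0.63 ± 0.11 (SE, limma adjusted p = 0.00104), with the groups apart. Col12a1, which coats type I fibrils in dense tissue, read 9.27, 9.40 and 9.34 on the arrays labelled differentiated and 8.96, 8.46 and 8.58 on those labelled undifferentiated. It rose by 0.67 ± 0.13 (SE, adjusted p = 0.00188), again without overlap, but did not pass in the unmoderated test (adjusted p = 0.0579). Col9a1 and Col9a2, which coat the fibrils of cartilage, differed by 0.39 ± 0.14 and 0.24 ± 0.11 (SE) and did not pass. Col9a1 passed without undifferentiated replicate 2 (adjusted p = 0.0149). Col14a1, a FACIT of skin and tendon, read 6.10, 5.23 and 5.29 on the arrays labelled differentiated and 5.24, 5.66 and 5.10 on those labelled undifferentiated, and is shown because a single array set its sign. Its difference of 0.21 ± 0.23 (SE) came to -0.074 without differentiated replicate 1, the one chain whose sign turned under any alternative tried.

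**Figure D4:**
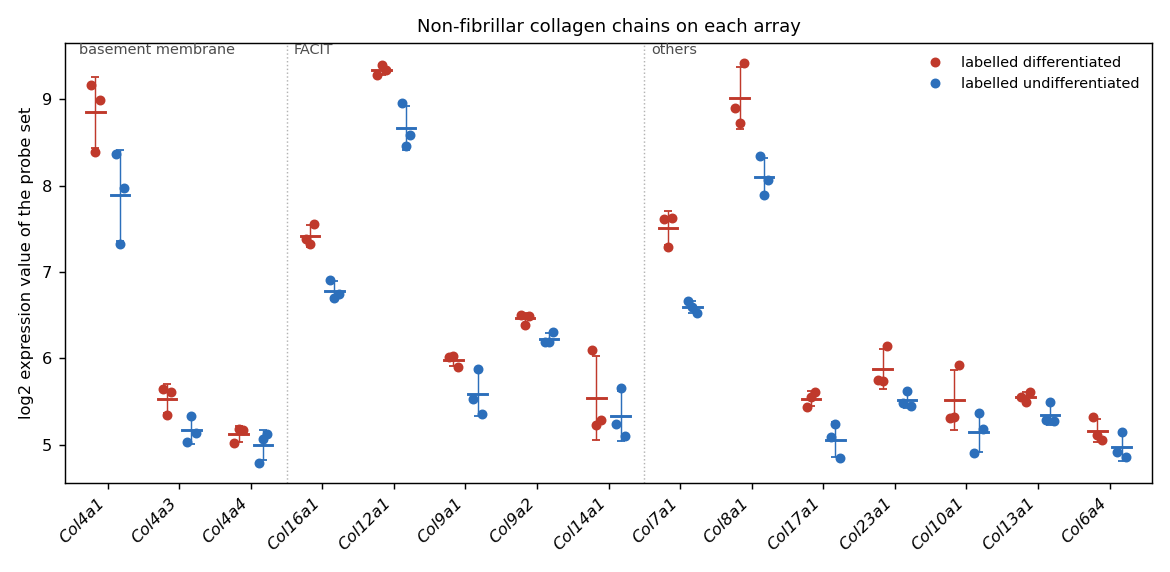
Log2 expression values of the probe sets of the 15 non-fibrillar chains on each of the 6 arrays, with the group mean as a line and the SD as a bar (n = 3 arrays a group). Col4a1, Col16a1, Col12a1, Col7a1, Col8a1 and Col17a1 passed the test. The groups overlap in Col4a4, Col14a1, Col10a1, Col13a1 and Col6a4.

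Of the 7 other chains 3 rose. Col7a1, the chain of the anchoring fibrils that tie epidermis to dermis, read 7.61, 7.29 and 7.63 on the arrays labelled differentiated and 6.67, 6.60 and 6.53 on those labelled undifferentiated. Its groups lay well apart, by 0.91 ± 0.12 (SE) or 1.88-fold (limma adjusted p = 0.000134). Col8a1, a short chain of vascular and corneal networks, read 8.89, 8.73 and 9.42 on the arrays labelled differentiated and 8.34, 7.89 and 8.07 on those labelled undifferentiated. It rose by 0.92 ± 0.17 (SE, adjusted p = 0.00192) and did not pass in the unmoderated test (adjusted p = 0.0822). Col17a1, a transmembrane chain of epithelial hemidesmosomes, read 5.44, 5.56 and 5.61 on the arrays labelled differentiated and 5.10, 5.24 and 4.85 on those labelled undifferentiated. Its groups lay close together without overlap, and it rose by 0.47 ± 0.14 (SE, adjusted p = 0.0236). In 4 of the 6 fits that left out an array Col17a1 did not pass: its adjusted p was 0.0533 and 0.0774 without differentiated replicates 2 and 3, and 0.0553 and 0.103 without undifferentiated replicates 1 and 3. It was also lost in the unmoderated test (adjusted p = 0.0804).

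The 4 chains of this group that did not pass were Col10a1 (0.37), of hypertrophic cartilage, the transmembrane chains Col23a1 (0.36) and Col13a1 (0.20), and Col6a4 (0.19), of the beaded filament type. Their standard errors were 0.12 to 0.19. Col6a4 had 3 probe sets, the only chain with more than 1, and they differed by 0.19, 0.22 and 0.11, none past the threshold.

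The other genes of collagen making and use were described by 6 lists, whose counts stand beside 14.7% higher, 14.9% lower and a median of 0.06 over all genes tested. These lists were chosen with earlier results of these data known. Of 12 measured genes of procollagen cleavage and cross-linking, 9 rose and 0 fell, with a median log2 difference of 0.97. They included the lysyl oxidases Loxl1 and Loxl3, which cross-link matrix fibres and differed by 1.91 and 1.53. Of 17 genes of collagen folding, hydroxylation and export, 10 rose and 3 fell, with a median of 0.40. P4ha3, a prolyl hydroxylase subunit, rose by 1.81 ± 0.13 (SE, limma adjusted p = 2.01e-06) and Fkbp10, a procollagen chaperone, by 1.41 ± 0.12. Plod3, a lysyl hydroxylase, fell by 0.51 ± 0.11 (SE, adjusted p = 0.00324). The other 2 that fell were Plod1 and P4ha1, a lysyl and a prolyl hydroxylase, at -0.49 and -0.56, named after their values were seen. Neither passed in the unmoderated test (adjusted p = 0.0556 and 0.116), nor did P4ha1 without undifferentiated replicate 3 (adjusted p = 0.0518).

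Of 9 collagen receptors 7 rose and 0 fell, with a median of 0.87. Itga11, the integrin subunit that binds fibrillar collagen, rose by 1.09 ± 0.12 (SE) and Ddr2, a receptor kinase for fibrillar collagen, by 1.35 ± 0.15. Of 13 collagen-binding matrix proteins 8 rose and 0 fell (median 0.84), among them the proteoglycan Bgn at 1.28 and Postn, periostin, at 1.13. Of 7 measured basement membrane partners of type IV, 4 rose and 0 fell (median 0.78). Nid2, which links laminin to type IV collagen, rose by 2.43 ± 0.12 (SE, limma adjusted p = 1.07e-07), and the laminin chain Lamc1 by 1.67 ± 0.17. Of 13 genes of collagen breakdown and its inhibitors 9 rose and 0 fell (median 1.53), with the collagenase Mmp13 at 2.62 and the gelatinase Mmp2 at 1.89. In the 5 lists with 0 genes that fell, limma at an unadjusted p under 0.05 gave 1 that was lower, the receptor kinase Ddr1 at -0.44, named after its value was seen (adjusted p = 0.0893). In the unmoderated test none of these 5 lists held a gene that fell, and the numbers that rose were 3 receptors, 5 collagen-binding proteins, 2 basement membrane partners, 7 genes of cleavage and cross-linking and 8 of breakdown. That test called 2740 of all 14506 genes in either direction.

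**Figure D5:**
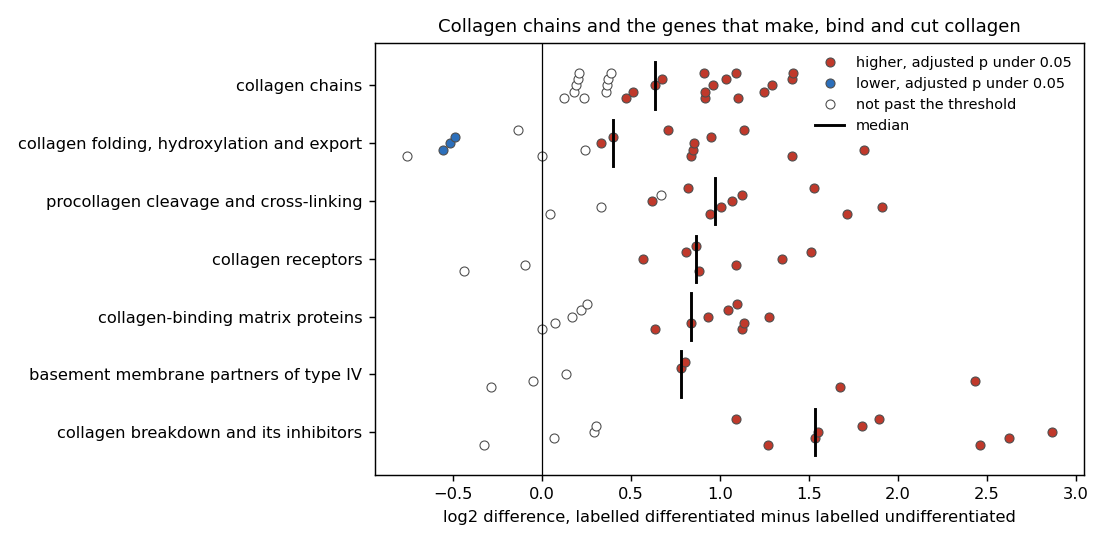
Log2 difference, arrays labelled differentiated minus arrays labelled undifferentiated, of each measured member of the collagen chains and of 6 lists of genes that make, bind or cut collagen. Each point is a gene, filled red where it passed higher, filled blue where it passed lower and open where it did not pass, with a black line at the list's median. Genes called lower appear in the folding and hydroxylation list alone, where there are 3.

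Among the marker lists of cell types, the fibroblast and mesenchymal list moved in the direction of the chains and the glomus list in the opposite one. Over all genes tested 14.7% rose and 14.9% fell, and the markers named, the checks of the labels apart, were chosen after their values were seen. Of 8 fibroblast and mesenchymal markers 7 rose and 1 fell, and their summed level ran from 13.15 to 13.26 on the arrays labelled differentiated and from 12.61 to 12.86 on those labelled undifferentiated (log2 of the summed linear values). Pdgfra rose by 1.46 and Prrx1 by 1.77, while Thy1 fell by 0.77. Dcn and Lum, which rose, were also counted among the collagen-binding matrix proteins, and Fap, which rose, among the genes of breakdown. Of 6 cartilage markers 2 rose and 0 fell: Acan at 1.24 and Hapln1 at 0.71. Their summed level was 10.39 to 10.63 in the differentiated group and 9.20 to 9.69 in the undifferentiated group. Acan weighed most in both sums, with a mean of 10.39 in the differentiated group against 9.15 in the undifferentiated group. Hapln1 was dim, with means of 4.19 and 3.48. Of 7 smooth muscle and pericyte markers 3 rose and 1, Rgs5, fell, at -2.28. Their summed level was lower, at 11.46 to 11.70 in the differentiated group and 12.56 to 12.70 in the undifferentiated group. Rgs5 weighed most in the undifferentiated sum, with a mean of 12.42 there against 10.14 in the differentiated group. Of 8 endothelial markers 1 rose and 1 fell, shares near those of all genes. Their summed level was 8.01 to 8.08 in the differentiated group and 8.69 to 9.11 in the undifferentiated group. The 1 that fell, Cldn5 at -2.31, weighed most in the undifferentiated sum, with a mean of 8.14 there against 5.84 in the differentiated group. Macrophage markers also stood near the shares of all genes, with 1 that rose and 1 that fell of 6, and 0 to 2 that rose and 0 to 1 that fell over the alternatives. Bone markers rose in 2 and fell in 1 of 5 cases, and of 5 neural progenitor and neuron markers 0 rose and 2 fell. Of 4 glial markers 2 rose and 0 fell, but leaving out any single array brought the number that rose to 1 or 0 (0 without differentiated replicate 3 or undifferentiated replicate 2). Over all alternatives the number that rose was 2 to 4 for smooth muscle and pericytes and 0 to 1 for neural progenitors and neurons. The number that fell was 1 to 2 for endothelium, with 2 without undifferentiated replicate 3, and 0 to 1 for bone, with 0 without differentiated replicate 2 or undifferentiated replicate 1. All 7 glomus cell markers fell, with a summed level of 11.34 to 12.03 in the differentiated group and 14.51 to 14.71 in the undifferentiated group. The part of cell composition in the collagen differences was not tested.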

How the data were processed

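Total RNA of 6 samples was hybridised as biotin-labelled cRNA made from 100 ng, per the labels' protocols. The authors deposited a table of 29214 probe sets with a value for each array. The deposited values are on a log2 scale, a base inferred here from their range. The sources used here give neither background correction, normalization nor software, and no detection level for dim probe sets. The number of arrays limits the precision. Probe sets were named from the platform annotation: 15310 had 1 gene symbol, 323 several, 0 of those a collagen chain, and 13581 were not listed. All 25 chains matched the GRCr8 gene table by gene ID with 0 symbols changed.

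Groups and replicate numbers came from the sample titles. All 6 arrays entered 1 fit of limma 3.58.1 (R 4.3.3; lmFit, eBayes with a mean-variance trend), differentiated minus undifferentiated, two-sided, without a block. The p-values were Benjamini-Hochberg adjusted over 14506 genes and called under 0.05. With no statement that replicates were separate cultures, they reflect the spread of these samples alone, possibly technical. The fit was checked on simulated data. Permutation tests used scipy 1.17.1 and figures matplotlib 3.10.9 in Python 3.11.15.

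The members, lists and tests were chosen with earlier results of these data known, and a list that had already been seen to rise overlaps them. Values on each array are given for the 4 called chains of smallest p in each family. From each other list the 2 genes of smallest p in the main direction and the 1 of smallest p called in the other direction are named, cell type markers aside. Alternatives tried were a block on the replicate number, quantile-normalized values, arrays centred on their medians, leaving out dim genes (at or below the 40th percentile), the mean or the most variable of a gene's probe sets, eBayes without the trend, an unmoderated test and leaving out each array.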

Additional observations from a re-analysis of the deposited data

How the results depend on the processing

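Over the 14 alternatives, 24 of the 25 chains kept a positive difference, a count not made over all genes. Of the 15 called chains 11, 9 of them fibrillar, passed in every one. The exceptions were Col4a1, Col8a1, Col12a1 and Col17a1, all of which lost their calls in the unmoderated test, where 11 chains rose. Leaving out each array in turn gave 13 to 16 chains that rose, 0 that fell, and a median difference between 0.56 and 0.70. The difference of Col14a1 ran from -0.074 (without differentiated replicate 1) to 0.37 in those 6 fits. Quantile normalization, median centring, leaving out dim genes, both other ways to represent a gene and eBayes without the trend each gave 15 chains that rose and 0 that fell. With the replicate number as a block 16 rose, Col9a1 being the addition (adjusted p = 0.049). The numbers were not shown to pair the arrays: deviations from the group means correlated by 0.12, 0.12 and -0.0038 between arrays of the same number, and the third differentiated array did not correlate best with its own number. For the lists of other genes and markers these alternatives were added after seeing the data. In the unmoderated test the numbers that rose were 6 for folding and hydroxylation (1 fell), 3 for receptors, 5 for collagen-binding proteins and 2 for basement membrane partners. That test called 2740 of all 14506 genes in either direction. Among receptors 1 fell with the replicate block, and 0 to 1 in the 6 fits that left out an array. The cause of these shifts was not tested. Both counts for fibroblast and for glomus markers were the same under every alternative, whereas the cartilage count came to 1 with dim genes left out and in the unmoderated test, and the glial count of 2 came to 0 with median centring and in the unmoderated test, to 1 in eBayes without the trend, and to 1 or 0 in each of the 6 fits that left out an array. How far the dimmest chains, such as Col4a4 and Col6a4, stood above background is unknown, which limits their differences.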

Other observations

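Of the 12 chains whose probe set averaged at least 7 on the log2 scale over the 6 arrays, 12 rose, with a median difference of 1.06. Of the 13 chains under 7, 3 rose, with a median of 0.36. Over all genes tested 23.5% of those at or above 7 and 10.8% of those under 7 rose. The value of 7 was chosen after the data were seen, and the part of brightness in the smaller differences was not tested.

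Within the groups no single order of arrays held for every chain, but many chains shifted together. The third array lay above its group mean in 20 of the 25 chains in the differentiated group and in 4 in the undifferentiated group. On the arrays labelled differentiated, the third gave the highest value in 12 of the 25 chains, and in 6 of the 7 chains outside the fibrillar, basement membrane and FACIT families. On the arrays labelled undifferentiated, the first gave the highest value in 12 chains, the second in 11 and the third in 2.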
